A study of Mus musculus with 8 samples.

Results

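Chemokines and the receptors that clear or follow them were measured in mouse epidermis after treatment with imiquimod, which activates Toll-like receptors and is widely used to give mice psoriasis-like skin. The genes are the Cxcl, Ccl and Cx3cl ligands, the atypical scavenging receptors Ackr2, Ackr3 and Ackr4, and the homing receptor Ccr7, picked by symbol from a list of 32 that was drawn up with earlier results of these data known. Of these, 29 had a row among the 23171 genes of the deposited count table, and Cxcl11, Cxcl17 and Ccl24 were not analysed here. A filter on low counts left 21 of the 29 for testing, within 14004 tested genes in all. The series holds 4 cKO libraries, from mice labelled as knockouts of Hnrnpu (a nuclear RNA-binding protein) in the epidermis, and 4 WT libraries, from mice used as controls. All 8 libraries came from imiquimod-treated epidermis, labelled as keratinocytes and as 1 batch. The sources used here do not give the driver of the deletion, the age of the mice or the time on imiquimod.

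Chemokines are small secreted proteins that form gradients and draw leukocytes through G protein-coupled receptors. Inflamed keratinocytes release CXC ligands that recruit neutrophils and CC ligands that recruit T cells and dendritic cells, and the CCL20 to CCR6 route is a known part of psoriasis. Atypical receptors bind chemokines without classical signalling and take them up, which shapes the gradients.

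Libraries held 37158621 to 38865722 counts. Hnrnpu stood at 190, 373, 355 and 312 CPM (counts scaled to library size with TMM factors) in cKO libraries 1 to 4, against 455, 424, 431 and 439 CPM in WT libraries 1 to 4. Every cKO library was below every WT library, but the difference did not pass the threshold used here (edgeR adjusted p = 0.191, exact permutation p = 0.0286). The fitted level in cKO was 0.703 times that in WT, so the loss of transcript seen in these libraries was partial. All 7 keratinocyte markers were above 1 CPM, with a summed level of 61427 to 86757 CPM in cKO and 69885 to 91003 CPM in WT. On the first principal component, with 35.6% of the variance, the genotypes did not overlap. There cKO libraries 1 to 4 lay at -27.5, -37, -52.2 and -23.3, and WT libraries 1 to 4 at 19.3, 25.7, 39.2 and 55.7. The second component, with 25.5% of the variance, split the cKO libraries. On it cKO libraries 1 and 4 lay at 37.5 and 60.2 and cKO libraries 2 and 3 at -39.9 and -30.5. WT libraries lay between -11.8 and 5.25 on the second component. Values are given for each library.

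Windows around the transcription start, from RefSeq's GRCm38.p6 tables, are shown for 4 of the genes whose levels are given in full. Cxcl12 is the gene that was called, Ccl22 the next by adjusted p, Cxcl10 another with no overlap between genotypes, and Cxcl2 the one with the lowest log2 fold change of the 21 tested. Each sequence is written 5′ to 3′ on the strand of its gene, and capitals mark matches on either strand to an NF-κB-type motif (GGG, any 3 bases, then TTCC), an interferon response motif (GAAA, any 2 bases, then GAAA), an AP-1 motif (TGANTCA) or a GC box (GGGCGG), where adjoining capitals can be overlapping matches.
Cxcl12 (chr6:117168285-117168584, plus strand): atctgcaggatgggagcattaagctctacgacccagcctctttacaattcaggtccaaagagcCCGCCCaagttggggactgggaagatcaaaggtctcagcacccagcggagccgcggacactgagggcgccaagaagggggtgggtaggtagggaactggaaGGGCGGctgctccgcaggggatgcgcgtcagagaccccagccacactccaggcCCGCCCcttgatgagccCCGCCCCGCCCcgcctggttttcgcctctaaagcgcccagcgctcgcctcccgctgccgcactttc
Ccl22 (chr8:94745434-94745733, plus strand): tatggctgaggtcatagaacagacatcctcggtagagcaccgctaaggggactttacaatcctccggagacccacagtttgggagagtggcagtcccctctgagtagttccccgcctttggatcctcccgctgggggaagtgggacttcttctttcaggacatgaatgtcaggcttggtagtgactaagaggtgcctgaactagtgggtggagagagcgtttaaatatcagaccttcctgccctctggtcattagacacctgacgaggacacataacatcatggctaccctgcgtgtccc
Cxcl10 (chr5:92348840-92349139, minus strand): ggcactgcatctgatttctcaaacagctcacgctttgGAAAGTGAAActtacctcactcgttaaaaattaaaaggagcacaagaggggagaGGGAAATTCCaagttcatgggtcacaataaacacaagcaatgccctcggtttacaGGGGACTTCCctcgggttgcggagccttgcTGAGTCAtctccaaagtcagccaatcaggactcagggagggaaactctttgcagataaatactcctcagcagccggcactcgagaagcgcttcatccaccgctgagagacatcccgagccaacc
Cxcl2 (chr5:90903649-90903948, plus strand): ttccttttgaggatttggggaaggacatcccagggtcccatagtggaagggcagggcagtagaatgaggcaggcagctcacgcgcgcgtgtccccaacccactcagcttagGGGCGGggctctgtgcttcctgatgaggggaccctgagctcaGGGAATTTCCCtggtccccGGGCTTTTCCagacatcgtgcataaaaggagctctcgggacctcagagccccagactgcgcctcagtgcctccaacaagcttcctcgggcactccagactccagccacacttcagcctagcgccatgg

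The Cxcl12 window held 5 GC boxes and no match to the other 3 motifs, and the Ccl22 window held no match to any of the 4. The Cxcl10 window held 1 interferon response match, 2 NF-κB-type matches and 1 AP-1 match. The Cxcl2 window held 3 NF-κB-type matches, 2 of them overlapping on opposite strands, and 1 GC box. Windows were found for 21 of the 29 genes, 23 windows in all. These are not the same 21 genes as those tested, as they include Ccl19 and Ccl28, which were below the count filter. A gene was counted if any of its windows matched, while the share beside it is per window. The NF-κB-type motif was in the windows of 6 (Cxcl1, Cxcl2, Cxcl3, Cxcl10, Ccl9 and Ccl20), and it was in 5.56% of all 32851 windows. Cxcl1, Cxcl2 and Cxcl3, which are related genes, held an identical match. The interferon response motif was in 3 of the 21 (Cxcl10, Cxcl14 and Ccl19) and in 3.44% of all windows. The AP-1 motif was in 5 of the 21 and in 7.81% of all windows, and the GC box in 7 of the 21 and in 35.7% of all windows. A match is a run of letters and not a measured site.

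Across all tested genes, 1.32% were called by edgeR's quasi-likelihood test at a Benjamini-Hochberg adjusted p below 0.05, 0.671% as higher in cKO and 0.65% as lower. Of the 21 chemokine and receptor genes tested, 1 was called, Cxcl12, which was higher in cKO. The genotypes did not overlap for 5 of the 21, all higher in cKO (Cxcl12, Ccl22, Cxcl14, Ccl6 and Cxcl10), beside 11.1% of all tested genes in either direction, 5.26% as higher and 5.82% as lower. DESeq2 called 6 of the 21 (Cxcl12, Ccl22, Cxcl14, Ccl6 and Ccl2 as higher and Cxcl2 as lower), beside 8.63% of all tested genes. The absolute log2 fold change was at least 1 for 13 of the 21, beside 8.27% of all tested genes. That share is not matched for level, and among the 13 are genes with few counts (Ccl3, Cxcl3 and Ccr7) or a wide spread (Ackr2). Of the 21, 13 had a positive log2 fold change (cKO over WT) with a median of 0.98 over the 21, beside 51.9% positive and a median of 0.01 over all tested genes. The unadjusted p was below 0.05 for 8 of the 21 with a higher and 2 with a lower level in cKO, beside 18.6% of all tested genes. A gene can pass the low-count filter through 1 genotype alone, so these counts describe the 21 and not the whole list.

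**Figure D1:**
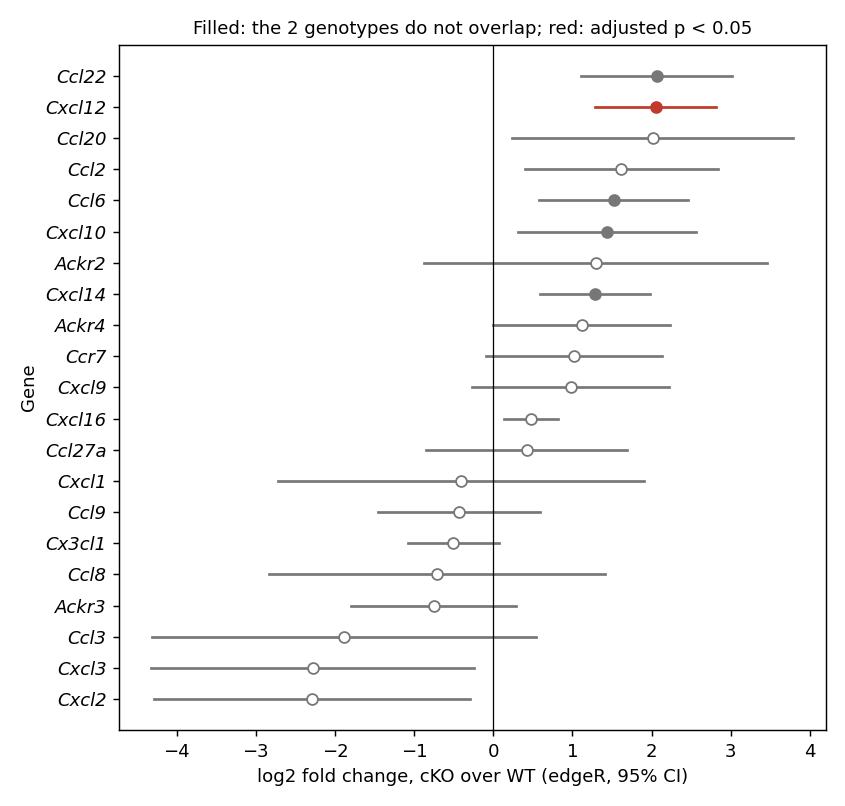
log2 fold change of the 21 tested genes, cKO over WT, from edgeR with 95% confidence intervals. Filled points are the 5 genes whose genotypes do not overlap, and the red point is Cxcl12, the 1 gene with an adjusted p below 0.05.

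Constitutive and membrane-bound ligands had 4 tested members, of which 1 was called by edgeR and 3 had a positive fold change. An unadjusted p below 0.05 was found for 3, and DESeq2 called Cxcl12 and Cxcl14. Cxcl12, also named SDF-1, is the ligand of CXCR4 and of the scavenger ACKR3 and is best known from stromal cells. It stood at 5.33, 3.22, 8.68 and 5.16 CPM in cKO libraries 1 to 4, against 1.52, 1.80, 0.972 and 1.097 CPM in WT libraries 1 to 4. The means were 5.60 ± 2.27 CPM in cKO against 1.35 ± 0.381 CPM in WT (SD, n = 4 each). The lowest cKO library was above the highest WT library. It rose 4.15-fold in cKO (log2 fold change 2.05 ± 0.34 SE, 95% confidence interval 1.29 to 2.82, edgeR adjusted p = 0.0308, exact permutation p = 0.0286, the smallest that 4 against 4 allows). In bulk epidermis, more cells of a type and more RNA per cell cannot be told apart.

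Whether Cxcl12 was called changed with the libraries used. Without cKO library 2 or 4 it held (edgeR adjusted p = 0.0148 and 0.0442), and without any 1 of the other 6 libraries it did not (adjusted p from 0.0566 to 0.103), while the log2 fold change stayed between 1.78 and 2.26. In 6 of 8 other settings where it had a value it was called. It was not called with the replicate number as a block (edgeR adjusted p = 0.0665) or with limma on unfiltered log2(FPKM + 1) (adjusted p = 0.137). Of 6 fibroblast markers (Col1a1, Col1a2, Col3a1, Dcn, Lum and Pdgfra) none reached a mean of 1 CPM over the 8 libraries, and their sum was 1.09 to 3.75 CPM in cKO and 1.15 to 9.92 CPM in WT. Col3a1, the highest of them in WT, averaged 0.423 CPM in cKO and 1.19 CPM in WT. The 6 endothelial markers summed to 1.18 to 2.12 CPM in cKO and 2.60 to 3.57 CPM in WT, also with none at a mean of 1 CPM over the 8 libraries. Tie1, the highest of these in WT, averaged 0.472 CPM in cKO and 1.39 CPM in WT. The 7 hair follicle markers, listed as outer root sheath, summed to 2989 to 4578 CPM in cKO and 1385 to 2281 CPM in WT. Krt79 gave most of this sum (2426 to 3129 CPM in cKO, 1119 to 1673 CPM in WT). For 5 of the 7 the genotypes did not overlap. Krt15 (348 to 1295 CPM in cKO, 217 to 529 CPM in WT) and Sox9 overlapped. The 6 melanocyte markers summed to 59.7 to 118 CPM in cKO and 34.3 to 52.2 CPM in WT. The 6 sebocyte markers summed to 837 to 2946 CPM in cKO and 601 to 1096 CPM in WT. The part of all these marker lists in the Cxcl12 level was not tested.

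Cxcl14, a ligand made constitutively by resting epithelia, stood at 46.4, 15.5, 23.4 and 41.2 CPM in cKO libraries 1 to 4, against 14.8, 12.9, 12.5 and 11.9 CPM in WT libraries 1 to 4. WT libraries lay close together, and the lowest cKO library was just above them. On the log2 scale it was higher by 1.28 ± 0.31 (SE) in cKO (edgeR adjusted p = 0.0705, exact permutation p = 0.0286). With 1 library left out it passed only without cKO library 2 (edgeR adjusted p = 0.0174). It passed in 2 of 10 other settings, DESeq2 (adjusted p = 0.0018) and no low-count filter (edgeR adjusted p = 0.047). With scaling by library size alone the genotypes overlapped.

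Cxcl16, a membrane-bound ligand of CXCR6 and scavenger of oxidised lipids, had the highest level of the 29 per gene length. Its deposited FPKM (the authors' length-scaled level) averaged 58.7 ± 10.4 in cKO and 40.1 ± 7.67 in WT (SD, n = 4 each). Its CPM was 81.4, 74.6, 87.7 and 97.7 in cKO libraries 1 to 4, against 57.7, 50.1, 79.2 and 57.8 in WT libraries 1 to 4. Only WT library 3 reached into the cKO range. The log2 fold change was 0.48 ± 0.15 (SE, edgeR adjusted p = 0.135, exact permutation p = 0.0571). The Zmynd15 model overlaps Cxcl16 in RefSeq and had 2.30 CPM on average in cKO, against 1.31 CPM in WT. Its part in the Cxcl16 counts was not tested. Cx3cl1, fractalkine, the membrane-bound ligand of CX3CR1, ran from 5.83 to 11.5 CPM in cKO and from 7.94 to 13.4 CPM in WT (log2 fold change -0.50 ± 0.26 SE, edgeR adjusted p = 0.328).

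**Figure D2:**
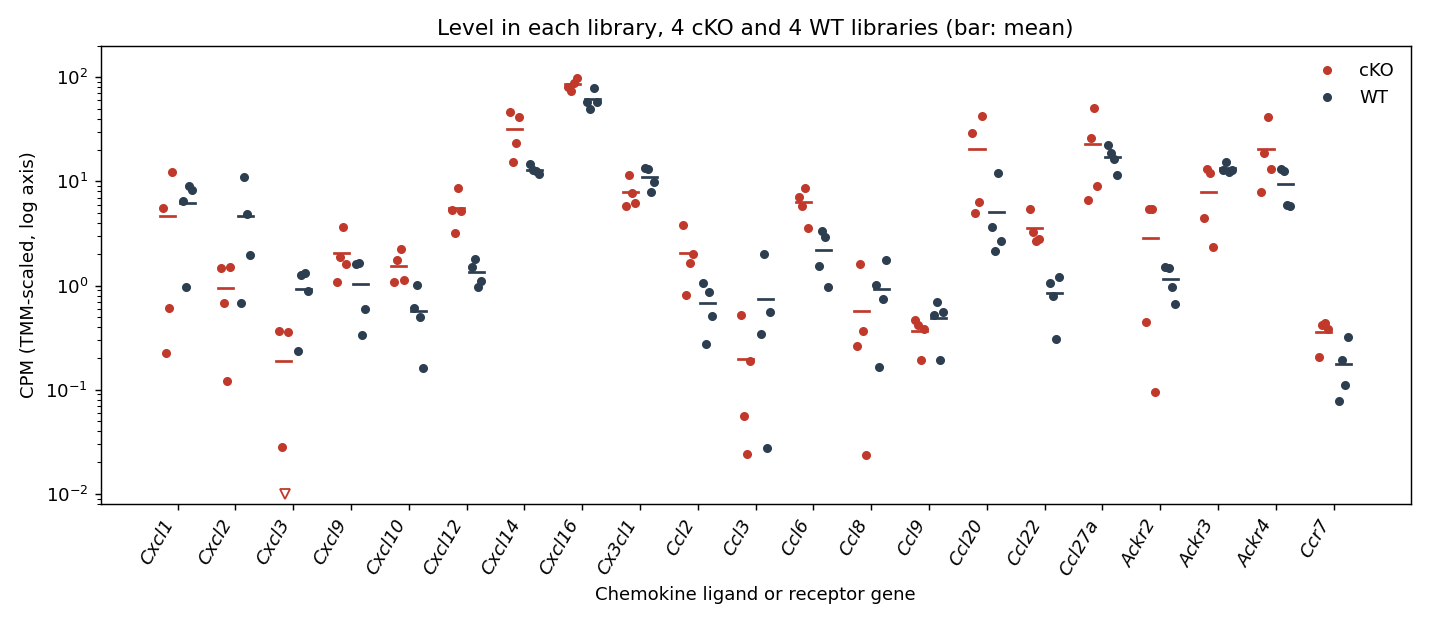
CPM (log axis) of the 21 tested genes in each library, cKO points and mean bar left of WT points and mean bar for each gene. The open triangle marks a cKO library with no Cxcl3 count, drawn at 0.01 CPM. All 4 cKO libraries of Cxcl12, Ccl22, Cxcl14, Ccl6 and Cxcl10 lie above the 4 WT libraries, and Ackr2 and Cxcl1 spread widely within cKO.

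Ligands for T cells and dendritic cells had 3 tested members, all with a positive fold change and none called by edgeR (2 with an unadjusted p below 0.05, 1 called by DESeq2). Ccl22, a ligand of CCR4 on regulatory and helper T cells that dendritic cells are known to make, was at 5.41, 3.25, 2.68 and 2.78 CPM in cKO libraries 1 to 4. In WT libraries 1 to 4 it was at 1.05, 0.802, 0.305 and 1.20 CPM. Every cKO library was more than 2 times as high as any WT library. Its log2 fold change was 2.06 ± 0.42 (SE, 95% confidence interval 1.11 to 3.02), about that of Cxcl12, but the adjusted p lay just outside the threshold (edgeR adjusted p = 0.0516, exact permutation p = 0.0286). It passed in 5 of 10 other settings, among them scaling by library size alone (edgeR adjusted p = 0.0457) and limma on log2(FPKM + 1) (adjusted p = 0.0307). With 1 library left out it passed only without cKO library 2 (edgeR adjusted p = 0.0484). The highest edgeR adjusted p of these fits was 0.119.

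In RefSeq's gene order Ccl22 lies between Pllp and Cx3cl1, and Ccl17 follows Cx3cl1, whose fold change was negative. Ccl17, the other CCR4 ligand, did not pass the count filter. It had 51, 6, 2 and 65 counts in cKO libraries 1 to 4, against 0, 0, 1 and 7 counts in WT libraries 1 to 4. cKO libraries 1 and 4 stood above all others, and cKO libraries 2 and 3 overlapped WT (exact permutation p = 0.0857). Langerhans and dendritic cell markers summed to 432, 736, 611 and 298 CPM in cKO libraries 1 to 4 and to 331 to 448 CPM in WT. Epcam, Cd74, H2-Ab1 and H2-Aa gave most of this sum. Cd207, a Langerhans cell marker, was at 5.88, 25.9, 15.9 and 3.21 CPM in cKO libraries 1 to 4. In WT libraries 1 to 4 it was at 5.06, 2.99, 6.28 and 4.68 CPM. Of the 7 markers tested, 6 had a positive and 1 a negative fold change, and none was called by edgeR. The part of these markers in the ligand levels was not tested.

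Ccl20, the ligand of CCR6 on Th17 cells and immature dendritic cells, had the second highest mean FPKM of the 29 over the 8 libraries. Its CPM was 28.9, 5.01, 6.32 and 42.4 in cKO libraries 1 to 4, against 3.62, 2.13, 12.1 and 2.65 in WT libraries 1 to 4. cKO libraries 1 and 4 were above every WT library, and cKO libraries 2 and 3 lay below WT library 3. On the log2 scale the difference was 2.02 ± 0.79 (SE), which did not pass (edgeR adjusted p = 0.214, exact permutation p = 0.143). It was 1.41 without cKO library 4 and 2.88 without WT library 3.

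Ccl27a, a skin-homing ligand that keratinocytes make constitutively for CCR10, had a different order within cKO from Ccl20. It stood at 6.63, 26.0, 50.6 and 9.06 CPM in cKO libraries 1 to 4, against 22.1, 18.9, 16.2 and 11.5 CPM in WT libraries 1 to 4. cKO libraries 1 and 4 were below every WT library and cKO libraries 2 and 3 above every one, with a mean log2 difference of 0.42 ± 0.56 (SE, edgeR adjusted p = 0.739). It was -0.31 without cKO library 3. Mouse genomes hold near-identical copies of this gene, and how shared reads were assigned is not given, so its counts are uncertain. The Il11ra1 model also overlaps it in RefSeq. Ccl28 had at most 11 counts in a library and Ccl19 at most 1, and neither was tested by edgeR.

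Neutrophil-attracting ligands had 3 tested members, all with a negative fold change and none called by edgeR (2 with an unadjusted p below 0.05, 1 called by DESeq2). Cxcl1, Cxcl2 and Cxcl3 act through CXCR2, and related members of the cluster share sequence. Cxcl2 was at 1.48, 0.672, 0.121 and 1.499 CPM in cKO libraries 1 to 4, against 0.682, 11.03, 4.89 and 1.98 CPM in WT libraries 1 to 4. WT library 1 lay within the cKO range, and the other 3 WT libraries were above it. Its fold change on the log2 scale was -2.29 ± 0.89 (SE, edgeR adjusted p = 0.209, exact permutation p = 0.114) and -1.40 without WT library 2.

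Cxcl3 had 14, 1, 0 and 15 counts in cKO libraries 1 to 4, against 9, 46, 48 and 33 counts in WT libraries 1 to 4, with WT library 1 again among the cKO libraries (log2 fold change -2.28 ± 0.90 SE, edgeR adjusted p = 0.220). Cxcl1 did not share this order. It stood at 5.59, 0.224, 0.603 and 12.2 CPM in cKO libraries 1 to 4, against 6.42, 0.968, 9.05 and 8.30 CPM in WT libraries 1 to 4. cKO library 4 was the highest and cKO libraries 2 and 3 the lowest of all 8. Its log2 fold change of -0.41 ± 1.03 (SE, edgeR adjusted p = 0.877) has a 95% confidence interval of -2.72 to 1.90, and it was -1.51 without cKO library 4 and 0.01 without cKO library 2. Cxcl5 had at most 5 counts in a library and was not tested by edgeR.

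Markers of neutrophils varied in the same libraries. The sum of 9 markers was 6909, 1682, 1645 and 9519 CPM in cKO libraries 1 to 4, against 4496, 3707, 14072 and 17123 CPM in WT libraries 1 to 4. S100a8 and S100a9, which inflamed keratinocytes also make, gave most of it, and 3 of the 9 reached a mean of 1 CPM. The sum was lowest in cKO libraries 2 and 3, which also had the least Cxcl1. Among the other markers, Retnlg had at most 4 counts in a cKO library, against 4, 220, 7 and 8 counts in WT libraries 1 to 4. Csf3r had 17, 5, 0 and 12 counts in cKO libraries 1 to 4, against 5, 42, 14 and 17 in WT libraries 1 to 4, and Mmp8 had 25, 0, 4 and 10 counts in cKO libraries 1 to 4, against 3, 39, 13 and 13 in WT libraries 1 to 4. All 3 were highest in WT library 2, the library with the highest Cxcl2, Ccl3 and Ccl4 and, of the WT libraries, the lowest marker sum. Cxcr2, the receptor of Cxcl1, Cxcl2 and Cxcl3, is also among the 9 and did not share this order. It had 218, 1065, 539 and 361 counts in cKO libraries 1 to 4. In WT libraries 1 to 4 it had 706, 638, 1127 and 1315 counts. Of the WT libraries, library 2 had the least Cxcr2, and of the cKO libraries, library 2 had the most. The part of these markers in the ligand levels was not tested.

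**Figure D3:**
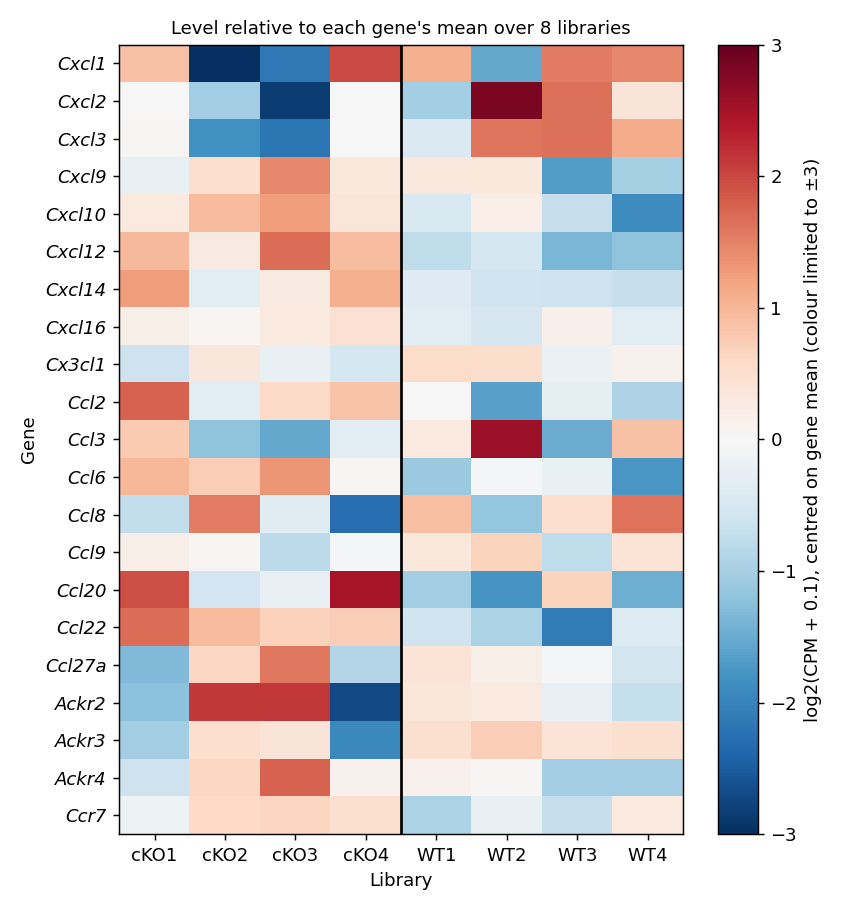
log2(CPM + 0.1) of the 21 tested genes in each library, with the 8-library mean of each gene subtracted, cKO libraries left of the line and WT libraries right of it. Within cKO, Ccl20 and Cxcl1 are higher in libraries 1 and 4, and Ackr2 and Ccl27a in libraries 2 and 3.

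The interferon-induced ligands of CXCR3, which draw activated T cells, had 2 tested members, both with a positive fold change and neither called by edgeR or DESeq2 (1 with an unadjusted edgeR p below 0.05). Cxcl10 was at 1.09, 1.76, 2.22 and 1.14 CPM in cKO libraries 1 to 4, against 0.603, 1.02, 0.4999 and 0.161 CPM in WT libraries 1 to 4. The lowest cKO library was only slightly above the highest WT library. Its log2 fold change was 1.44 ± 0.50 (SE, edgeR adjusted p = 0.172, exact permutation p = 0.0286). The gene model of Art3 overlaps Cxcl10 in RefSeq, and Art3 averaged 12.98 CPM in cKO and 6.18 CPM in WT (edgeR adjusted p = 0.0535). With the strand setting of the counting not given, reads of the pair cannot be told apart.

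Cxcl9 was at 1.09, 1.88, 3.64 and 1.62 CPM in cKO libraries 1 to 4, against 1.63, 1.63, 0.333 and 0.589 CPM in WT libraries 1 to 4. The genotypes overlapped, with WT libraries 1 and 2 inside the cKO range (log2 fold change 0.98 ± 0.55 SE, edgeR adjusted p = 0.385, exact permutation p = 0.200).

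Ligands for monocytes and eosinophils had 5 tested members, 3 with a negative and 2 with a positive fold change, and none was called by edgeR (2 with an unadjusted p below 0.05, the 2 that DESeq2 called). Ccl6, a mouse ligand of CCR1 made by myeloid cells, had the highest mean FPKM of them. It stood at 7.02, 5.85, 8.71 and 3.57 CPM in cKO libraries 1 to 4, against 1.55, 3.35, 2.92 and 0.964 CPM in WT libraries 1 to 4. The lowest cKO library was just above the highest WT library. In edgeR the log2 fold change was 1.52 ± 0.42 (SE, edgeR adjusted p = 0.0990, exact permutation p = 0.0286), and DESeq2 called it (adjusted p = 0.00647).

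Ccl2, also named MCP-1, the monocyte attractant that binds CCR2, was at 3.85, 0.812, 1.64 and 1.998 CPM in cKO libraries 1 to 4, against 1.05, 0.276, 0.861 and 0.509 CPM in WT libraries 1 to 4. Only cKO library 2 fell within the WT range (log2 scale 1.62 ± 0.54 SE, edgeR adjusted p = 0.157, exact permutation p = 0.0857). The 10 monocyte and macrophage markers summed to 33.9 to 74.5 CPM in cKO and 53.1 to 60.4 CPM in WT, so the range of the sum in cKO held that in WT. Of the 9 markers tested, 8 had a negative and 1 a positive fold change, and none was called by edgeR. Cd14 alone of the 9 had no overlap between genotypes, at 2.15 to 4.37 CPM in cKO and 4.53 to 9.15 CPM in WT. With a log2 difference of -1.15, Cd14 did not pass (adjusted p = 0.0874 by edgeR). How far these markers account for the Ccl2 and Ccl6 levels was not tested.

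The other members of this class were at the lower end of detection. Ccl3 and Ccl4, inflammatory ligands made by activated leukocytes, were high in a single WT library, with 20, 2, 1 and 8 Ccl3 counts in cKO libraries 1 to 4, against 13, 73, 1 and 21 in WT libraries 1 to 4. Ccl4 had 9, 0, 5 and 1 counts in cKO libraries 1 to 4, against 6, 111, 4 and 6 counts in WT libraries 1 to 4. The Ccl3 log2 fold change was -1.88 ± 1.08 (SE, edgeR adjusted p = 0.388) and -0.63 without WT library 2, and the 2 gene models overlap in RefSeq. Ccl8 (-0.71, edgeR adjusted p = 0.740) and Ccl9 (-0.43, adjusted p = 0.656) had smaller log2 fold changes than their standard errors. Ccl5, a ligand made by activated T cells, had 5, 1, 6 and 4 counts in cKO libraries 1 to 4, against 0, 1, 0 and 0 counts in WT libraries 1 to 4. These counts are too few for a fold change, and Ccl7 and Ccl11, with at most 9 and 6 counts in a library, did not pass the filter either.

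None of the 3 atypical receptors was called by edgeR or DESeq2 or had an unadjusted edgeR p below 0.05, and each spread widely within cKO. Ackr2, formerly D6, takes up and degrades inflammatory CC chemokines. It was at 0.442, 5.38, 5.45 and 0.0952 CPM in cKO libraries 1 to 4, against 1.52, 1.47, 0.972 and 0.669 CPM in WT libraries 1 to 4. cKO libraries 2 and 3 were above every WT library and cKO libraries 1 and 4 below every one. The log2 fold change of 1.29 ± 0.96 (SE, edgeR adjusted p = 0.511, exact permutation p = 0.714) is a mean of these opposite values, and it was -0.07 by limma-voom.

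Ackr3, the scavenger of CXCL12, was at 4.45, 13.02, 12.0 and 2.33 CPM in cKO libraries 1 to 4, against 12.8, 15.5, 12.4 and 12.8 CPM in WT libraries 1 to 4. WT libraries lay within a narrow range, cKO libraries 2 and 3 were at or near it, and cKO libraries 1 and 4 were well below. The fold change was -0.75 ± 0.46 on the log2 scale (SE, edgeR adjusted p = 0.419, exact permutation p = 0.114), -1.08 without cKO library 2 and -0.45 without cKO library 4. Cxcl12 itself was above WT in all 4 of the cKO libraries.

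Ackr4, which clears the CCR7 ligands CCL19 and CCL21 and also binds CCL25, was at 7.91, 18.9, 41.5 and 13.3 CPM in cKO libraries 1 to 4. In WT libraries 1 to 4 it was at 13.2, 12.6, 5.97 and 5.86 CPM. cKO library 1 lay inside the WT range, cKO library 4 just above its top, and cKO library 3 far above it (log2 scale 1.12 ± 0.50 SE, edgeR adjusted p = 0.270, exact permutation p = 0.143, and a log2 fold change of 0.51 without cKO library 3). The model of Acad11 overlaps Ackr4 in RefSeq, and Acad11 averaged 52.8 CPM in cKO and 39.4 CPM in WT (edgeR adjusted p = 0.126). Ccr7, the receptor by which dendritic cells move to lymph nodes, had 8, 15, 18 and 16 counts in cKO libraries 1 to 4, against 3, 7, 4 and 12 counts in WT libraries 1 to 4. Its genotypes overlapped (log2 fold change 1.02 ± 0.49 SE, edgeR adjusted p = 0.308, exact permutation p = 0.0571).

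Of 19 further chemokine receptors, 10 were tested, and none was called in either direction (1 positive, 9 negative, median log2 fold change -0.44, none with an unadjusted edgeR p below 0.05 and none called by DESeq2). The signalling receptor of CXCL12, Cxcr4, named after its value was seen, averaged 2.35 CPM in cKO (SD 0.846), against 2.38 CPM in WT (SD 0.565), with a 95% confidence interval of its log2 fold change from -0.73 to 0.70. Below the filter, Ccr8, the receptor of CCL1 on skin T cells, had 5, 4, 14 and 7 counts in cKO libraries 1 to 4, against 0, 1, 0 and 2 counts in WT libraries 1 to 4. Its ligand Ccl1 had 16, 9, 24 and 37 counts in cKO libraries 1 to 4, against 2, 4, 2 and 6 counts in WT libraries 1 to 4. Both receptor and ligand had every cKO library above every WT library, and neither passed the count filter. They were named for that separation. The genotypes did not overlap for 11.1% of all tested genes, and the share among genes below the filter was not worked out. Xcr1, a receptor of cross-presenting dendritic cells, had 1, 0, 1 and 0 counts in cKO libraries 1 to 4, against 2, 1, 3 and 6 counts in WT libraries 1 to 4.

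Of 10 further ligands, 3 were tested and none was called by edgeR (1 with an unadjusted p below 0.05, also called by DESeq2). Ccl21a, a ligand of CCR7, was below WT in every cKO library, with 7, 1, 10 and 2 counts in cKO libraries 1 to 4, against 61, 35, 12 and 38 counts in WT libraries 1 to 4. Its log2 fold change was -2.93 ± 0.67 (SE, edgeR adjusted p = 0.0619, exact permutation p = 0.0286). It belongs to a family of near-identical copies, so reads may have been split or dropped.

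Among 6 genes that cleave or retain chemokines, 1 was called. Mmp9, gelatinase B, which trims CXC chemokines, fell to 1.87, 5.21, 1.38 and 0.571 CPM in cKO libraries 1 to 4, against 11.3, 16.3, 22.1 and 18.9 CPM in WT libraries 1 to 4. Its log2 fold change was -2.93 ± 0.57 (SE, edgeR adjusted p = 0.0439), and DESeq2 also called it. The adjusted p lay near the threshold, and whether the call held without single libraries was not read. Sdc1, a heparan sulfate proteoglycan that holds chemokines at the cell surface, was at 973, 1013, 874 and 1028 CPM in cKO libraries 1 to 4, against 1191, 1331, 1508 and 1583 CPM in WT libraries 1 to 4. All cKO libraries were below all WT libraries, with an edgeR adjusted p of 0.0550 (log2 fold change -0.53 ± 0.12 SE). Of 12 cytokines, most of them known to induce keratinocyte chemokines, 9 were tested. None was called by edgeR (5 positive, 4 negative, median log2 fold change 0.03), and 3 had an unadjusted p below 0.05 (2 higher and 1 lower in cKO). DESeq2 called 2, Il1a and Tslp, whose edgeR log2 fold changes were 1.26 and 2.84.

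**Figure D4:**
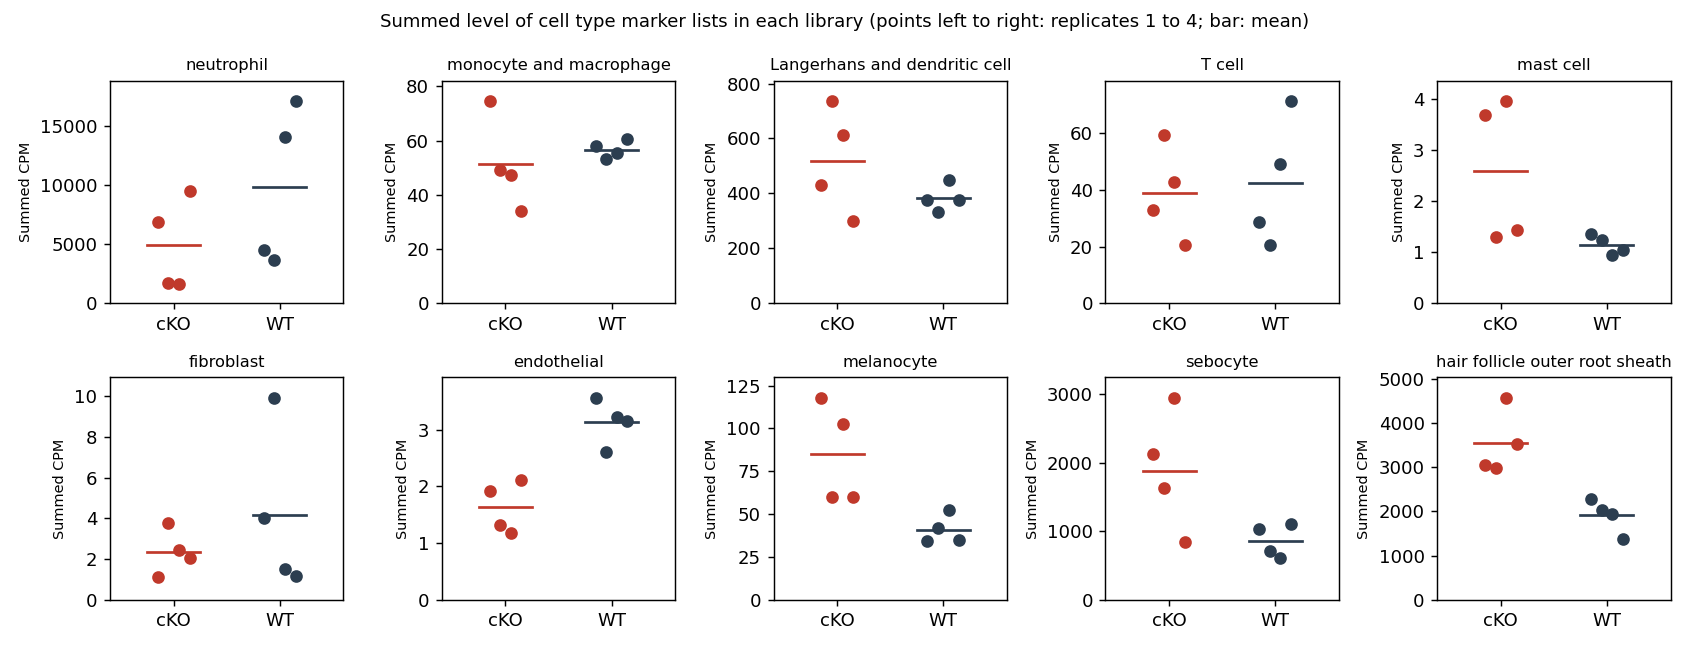
Summed CPM of 10 cell type marker lists in each library, cKO left of WT in each panel, points from left to right for replicates 1 to 4 and a bar for the mean. The sum of the hair follicle list, titled outer root sheath, is mostly Krt79. The genotypes do not overlap for this list (2989 to 4578 CPM in cKO, 1385 to 2281 CPM in WT), the melanocyte list (59.7 to 118 CPM in cKO, 34.3 to 52.2 CPM in WT) and the endothelial list (1.18 to 2.12 CPM in cKO, 2.60 to 3.57 CPM in WT), and overlap for the other 7.

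Markers of T cells did not all go one way. The 8 T cell markers with a row summed to 20.5 to 59.5 CPM in cKO and 20.6 to 71.3 CPM in WT, a sum carried mostly by Thy1 and Cd3g. Of the 8, 7 were tested by edgeR, 3 with a positive and 4 with a negative log2 difference, and none was called (2 with an unadjusted p below 0.05). Cd4, the co-receptor of helper T cells that other leukocytes also carry, had 31, 26, 20 and 24 counts in cKO libraries 1 to 4, against 7, 0, 4 and 2 counts in WT libraries 1 to 4. Every cKO library was above every WT library (log2 difference 2.84 ± 0.64 SE, edgeR adjusted p = 0.0582, exact permutation p = 0.0286). Cd8a, below the count filter, had 27, 18, 9 and 9 counts in cKO libraries 1 to 4, against 4, 2, 3 and 2 counts in WT libraries 1 to 4, also with no overlap. Cd2 had 68, 83, 65 and 22 counts in cKO libraries 1 to 4, against 20, 1, 18 and 27 counts in WT libraries 1 to 4, with cKO library 4 inside the WT range. Cd3e, Cd3d and Cd3g, the subunits of the T cell receptor complex, had negative log2 fold changes of -0.22, -0.67 and -0.63 (edgeR adjusted p = 0.858, 0.528 and 0.612). The part of these markers in the levels of Ccl22, Cxcl9 and Cxcl10 was not tested.

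The 5 mast cell markers with a row summed to 1.29 to 3.96 CPM in cKO and 0.944 to 1.36 CPM in WT, with cKO library 2 inside the WT range and cKO library 4 just above it. Nearly all of that sum was Kit, which melanocytes also express, and the other 4 (Cpa3, Mcpt4, Cma1 and Tpsb2) had 0 counts in every WT library and at most 3 in a cKO library. No marker gene with a row was at 0 counts in all 8 libraries.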

How the data were processed

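RNA was measured in 4 cKO and 4 WT epidermis libraries, grouped by the genotype in their titles. The authors deposited whole-number read counts per gene symbol, made with HISAT2 and HTSeq per the submitters' processing notes, and FPKM values of the same genes and libraries per the file headers. The sources used here do not give versions, genome build, annotation or strand setting, and no reads were recounted. Genes were filtered with filterByExpr, scaled with TMM factors and tested with edgeR 4.0.16 quasi-likelihood (R 4.3.3), cKO over WT with no covariate. P-values were adjusted by Benjamini-Hochberg over all 14004 tested genes, and a gene was called below 0.05. Standard errors are those implied by the F statistic, and levels are CPM. Two-sided exact permutation tests over the 70 splits of 4 against 4 used log2(CPM + 0.5), where 4 or more libraries had a count, and are unadjusted. Levels between genes were compared only by FPKM.

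The member list, the other gene lists and the rule for which genes get full values were chosen with earlier results of these data known. The rule took called genes, genes without overlap, genes with an absolute log2 fold change of at least 1 and a mean of at least 1 CPM, and the 2 most abundant per class. A value of each tested gene of the member list was also read under DESeq2 1.42.0, limma-voom (limma 3.58.1), RLE factors, library-size scaling and 2 other filters. Further fits used log2(FPKM + 1) and log2(FPKM + 0.1) with limma, a replicate block, and the data without each library. Total counts ran from 37158621 to 38865722, which limits genes with few counts. Within a genotype no pair of libraries agreed within sampling noise (lowest chi-square per degree of freedom 47.9). The series' design text counts 4 mice per genotype and the labels number the libraries 1 to 4. That each library is a separate mouse is not stated library by library. The p-values test the difference between genotypes against the spread between these libraries.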

Additional observations from a re-analysis of the deposited data

Results flagged for a closer look

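In 7 of 57 groups of 4 libraries, 1 library stood apart from the other 3 by most of the group's range. The cutoff flags about 1 in 20 groups of normally distributed values. CPM near 0 counts is not so distributed, and a group with only 1 nonzero library is always flagged. The 7 therefore cannot be set against that rate. Ccl20 was at 12.1 CPM in WT library 3 and at 2.13 to 3.62 CPM in the other WT libraries. Ackr3 was at 15.5 CPM in WT library 2 and at 12.4 to 12.9 CPM in the others. Ccl4 was at 3.07 CPM (111 counts) in WT library 2 and at 0.111 to 0.161 CPM in the others. The remaining 4 rest on few counts. Cxcl5 was at 0.119 CPM (5 counts) in cKO library 4 and at 0 counts in the other cKO libraries. Ccl17 was at 0.187 CPM (7 counts) in WT library 4 and at most 1 count in the others. Ccl5 was at 0.0276 CPM in WT library 2 and Ccl19 at 0.0262 CPM in WT library 1, each from 1 count where the other WT libraries had 0.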

How the results depend on the processing

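The number of these genes that were called was 1 in the fit reported, 6 with DESeq2 (Cxcl12, Ccl22, Cxcl14, Ccl6, Ccl2 and Cxcl2), 2 with scaling by library size alone, 3 with no low-count filter, 0 with limma on unfiltered log2(FPKM + 1), and 0 to 3 without 1 library (8 to 11 with an unadjusted p below 0.05, and 11 in that FPKM fit). Over all genes the call count of 185 became 1208 with DESeq2, 349 with no low-count filter, 19 with limma on unfiltered log2(FPKM + 1), and 8 to 506 without 1 library (without cKO libraries 1 to 4, 20, 506, 66 and 213, and without WT libraries 1 to 4, 34, 36, 8 and 23). The 5 genes without overlap became 5 to 9 without 1 library (9 without cKO library 2 and 8 without WT library 3). In the lists of other receptors, ligands, cleavage genes and cytokines, 1 gene was called by edgeR and 5 by DESeq2. Signs turned for Cxcl1 (-1.51 to 0.013 without 1 library, positive without cKO library 2), Ccl27a (-0.31 to 0.73 without 1 library) and Ackr2 (-0.069 by limma-voom), and the cause was not tested. The other 18 tested genes kept their direction in every fit run. With the replicate number as a block, 216 genes were called in all and 0 of these genes, 8 of which had an unadjusted edgeR p below 0.05. Same-numbered libraries deviated with correlations from -0.0884 to 0.182, and 2 of 4 cKO and 3 of 4 WT libraries correlated best with their own number, a hint of pairing from the data. The labels name nothing shared by a number and 1 of the 4 correlations was negative, so the fit reported has no block. Cxcl12 has no value on filtered FPKM, where its mean was below 0.5. Low counts limit Ccl3, Ccl5, Ccl7, Ccl17, Ccr7 and Cxcl3.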
